A study of Mus musculus with 6 samples.

Results

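The voltage-gated potassium channel subunits were examined in mouse frontal cortex as a family of 37 genes out of 33000 in the count table. The rule that chose them uses only names: protein-coding genes whose symbol starts with Kcna, Kcnb, Kcnc, Kcnd, Kcnh, Kcnq, Kcnab or Kcnip and ends in a number. TruSeq mRNA libraries, which sample transcripts along their full length, were sequenced from 3 GFAP-IL6 mice homozygous for the transgene and from 3 wild-type (WT) mice, all on the C57BL/6 strain and 3 months old. The GFAP-IL6 mouse expresses the inflammatory cytokine IL6 from a transgene driven by the promoter of Gfap, which directs expression to astrocytes, and no agent was given to either group. The study sequenced them to set its own 3′-end protocol beside a standard one, and the comparison described here is GFAP-IL6 against WT.

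Voltage-gated potassium channels open when a neuron depolarizes and let potassium leave the cell, which ends the action potential and sets how soon the next can follow. The pore is a ring of alpha subunits, here the Kcna, Kcnb, Kcnc, Kcnd, Kcnh and Kcnq genes. Some subunits of the same subfamily, such as those of Kcna1 and Kcna2, can mix within a ring. The Kcnab genes encode cytoplasmic beta subunits that bind Kcna channels, and the Kcnip genes encode calcium-binding proteins that bind Kcnd channels and regulate their traffic and inactivation. In cortex these genes are known mainly from neurons, where different subfamilies serve axons, cell bodies, dendrites and fast-spiking interneurons.

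IL6 signals through STAT factors, whose sites are known to hold the letters TTCNNNGAA, and promoter windows of the family were searched for them. RefSeq windows from 250 bases before to 50 bases after a start on GRCm38.p6 were held for 26 of the 37 genes, in 39 windows, and 3 windows (7.69%) held the letters, against 8.30% of all 32851 windows. The letters read the same on both strands. The 3 matches were in windows of Kcnab1, Kcnip1 and Kcnip3, and are shown with 30 bases on either side because they include Kcnab1, the gene with the smallest p of the family. Each is written 5′ to 3′ on the strand of its gene, with the match in capitals. That of Kcnab1 (chr3:64948994-64949062, plus strand) starts its match at position -188 from a RefSeq start that lies outside the gene as GENCODE M21 draws it, that of Kcnip1 (chr11:33680842-33680910, minus strand) at -198 from one of its 3 starts, and that of Kcnip3 (chr2:127522120-127522188, minus strand) at -64 from one of its 3.
Kcnab1: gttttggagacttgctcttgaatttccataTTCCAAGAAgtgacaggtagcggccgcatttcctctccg
Kcnip1: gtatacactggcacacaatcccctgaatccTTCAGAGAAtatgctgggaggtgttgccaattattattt
Kcnip3: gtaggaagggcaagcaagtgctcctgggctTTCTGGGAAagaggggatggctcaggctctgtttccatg
The share of the family's windows with a match was near that of all windows. A match is a description of the letters, and no binding was measured. Counts per gene do not show from which start a transcript began. The 39 windows had a median GC content of 60.3%, against 52.7% for all windows.

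None of the genes that could be tested was called different between GFAP-IL6 and WT at an adjusted p under 0.05 by edgeR. A low-count filter was passed by 33 of the 37 genes, and 0 of these 33 were called in either direction, against 2.86% of the 15341 genes tested (2.65% higher and 0.209% lower). With a log2 fold change beyond 1 in either direction also required, 0 of 33 were called against 1.38% of all genes tested. With DESeq2 as the tool 1 gene, Kcnab1, was called, lower in GFAP-IL6. DESeq2 called 522 genes in all (416 higher, 106 lower), against 439 by edgeR (407 higher, 32 lower). At an unadjusted p under 0.05 by edgeR there were 2 of 33 genes (6.06%), Kcnab1 and Kcnip4, both lower in GFAP-IL6, against 20.5% of all genes tested in either direction, 11.1% higher and 9.37% lower. The median log2 fold change of the 33 genes was 0.03, against -0.0038 for all genes tested, and the values ran from -0.37 for Kcnab1 to 0.44 for Kcna3. For 31 of the 33 genes (93.9%) the 95% interval lay within 1 log2 unit of 0 in either direction, as it did for 89.04% of all genes tested, and for 24 (72.7%) it lay within 0.5 log2 units, against 58.7%. A log2 fold change beyond 0.5 was estimated for 0 of the 33 genes and for 8.57% of all genes tested.

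Total counts were between 11591066 and 16877001 in WT and between 7559524 and 11072008 in GFAP-IL6, so each GFAP-IL6 library was shallower than each WT library. The labels were checked with Gfap, at 94.5 ± 24.8 CPM in the WT mice and 678 ± 179 CPM in the GFAP-IL6 mice (SD, n = 3 each), where CPM are counts scaled to library size with TMM factors. Reads of Il6 numbered 0, 2 and 0 in the WT libraries, at or under the floor of 3 counts, and 12, 10 and 24 in the GFAP-IL6 libraries. All 13 neuron markers were tested, and their summed level was between 12890.5 and 14189 CPM in WT and between 12613 and 13674 CPM in GFAP-IL6. Some WT libraries stood apart in markers of neighbouring regions. Summed over 10 striatum markers, WT replicate 2 was at 493 CPM, while the other 5 libraries were between 261 and 340 CPM. Summed over 7 choroid plexus markers, WT replicate 3 was at 617 CPM, while the other 5 libraries were between 3.75 and 60.1 CPM. Summed over 11 oligodendrocyte and precursor markers, the WT libraries were at 3408, 6169.99 and 5599.7 CPM and the GFAP-IL6 libraries at 4437, 3439 and 5319.5 CPM, so WT replicate 1 was the lowest and WT replicate 2 the highest. The part of these markers in the results was not tested. For several genes the value without WT replicate 2 is given beside the result. In bulk tissue, fewer cells of a type and less RNA per cell cannot be told apart.

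The genes are shown first by level, in TPM (transcripts scaled to a common total), a unit that corrects for gene length and so allows comparison between genes. It rests on the deposited lengths. That of Kcna1, 8970 bases, is longer than its gene in GENCODE M21 (chr6:126640397-126646384). The length of Kcna3, 1968 bases, is also longer than its gene there (chr3:107036169-107038070). A shorter length would raise the TPM of either gene. The order of Kcna1 and Kcna2, their ratio in TPM and the place of Kcna3 among the genes thus depend on the length taken. Kcnab2, the most abundant beta subunit, was the highest of the 37 genes by TPM, at 310 ± 33.8 TPM (SD, n = 3) in WT and 329 ± 24.6 TPM (SD, n = 3) in GFAP-IL6. Among other abundant genes were Kcnh3 and Kcnip2, whose means over all 6 libraries were 152 and 137 TPM. Kcnh3 encodes a channel of the ELK type, found mainly in forebrain. Kcnip2 is a partner of Kcnd channels. The WT means of Kcnh3 and Kcnip2 were 139.98 ± 17.8 and 133 ± 20.6 TPM (SD, n = 3 each), and Kcnh3 was the higher within every library of both groups. The WT means of Kcnip3 and Kcna2 were 99.2 ± 5.72 and 91.9 ± 12.5 TPM (SD, n = 3 each). Kcnip3 was the higher within every WT library, but not in GFAP-IL6 replicate 2, at 93.3 TPM against 107 TPM. These orders were not tested.

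**Figure D1:**
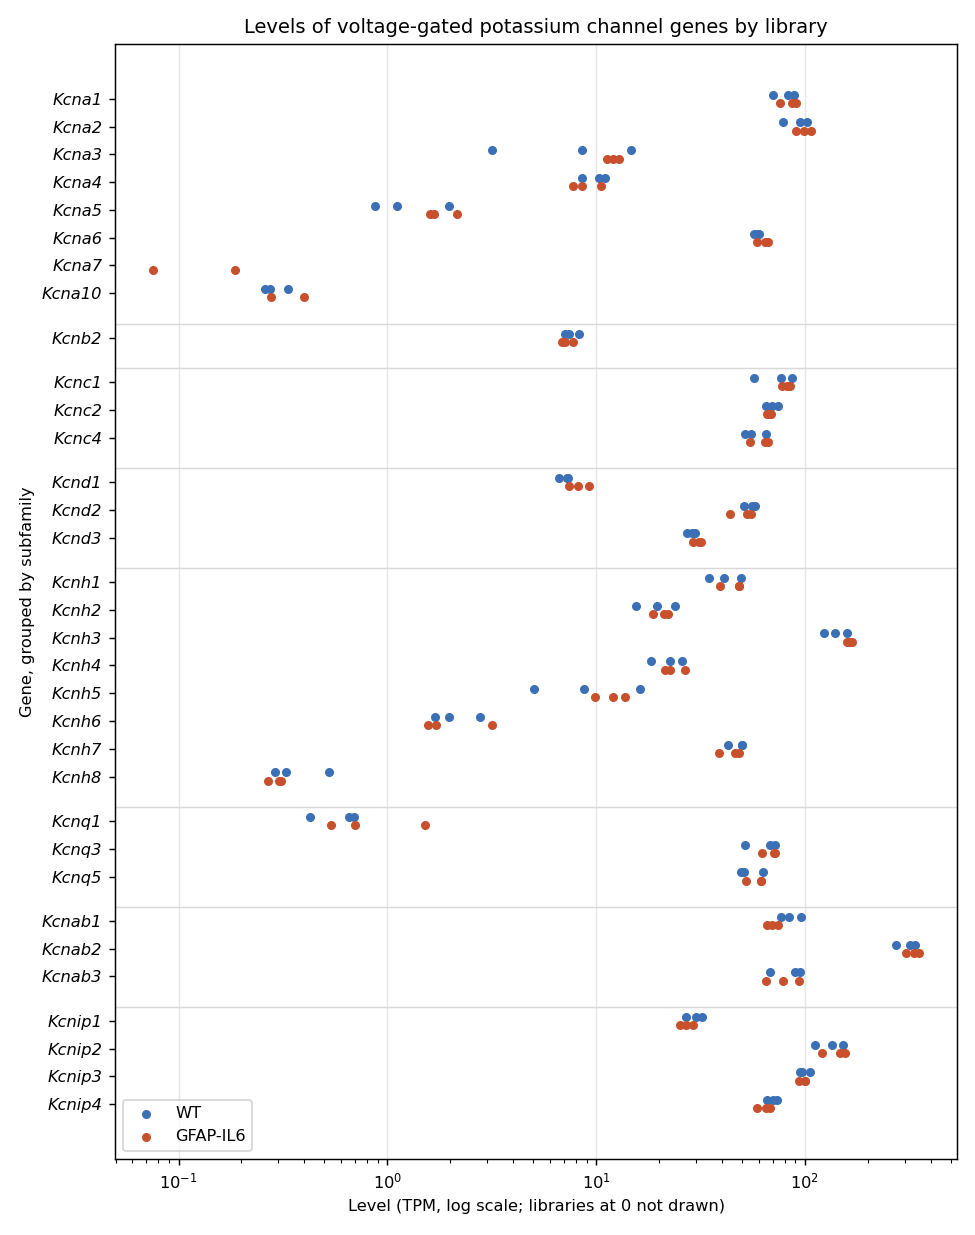
Level of each of 33 genes in every library, in TPM on a log axis, with genes grouped by subfamily; points are single libraries of WT (blue) and GFAP-IL6 (orange), and libraries at 0 are not drawn. The points of both groups lie close together for nearly every gene, and the genes run from Kcnab2 at the top of the range to Kcna7 and Kcna10 at the bottom.

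The 4 genes that did not pass the low-count filter were Kcna7, Kcna10, Kcnh8 and Kcnq1. Kcna7, a channel known from skeletal muscle, had 0 counts in every WT library, which allows up to 3 counts or 0.179 to 0.261 CPM, and 1, 0 and 2 counts in the GFAP-IL6 libraries. For Kcna10 the reads numbered 2, 4 and 3 in the WT libraries and 2, 2 and 0 in the GFAP-IL6 libraries. For Kcnh8 the reads numbered 5, 14 and 8 in the WT libraries and 5, 3 and 4 in the GFAP-IL6 libraries. Kcnq1, best known from the heart and the inner ear, had reads numbering 8, 8 and 12 in the WT libraries and 8, 12 and 5 in the GFAP-IL6 libraries, and 2.96% of its exon bases are also covered by the antisense transcript Kcnq1ot1. These genes entered no test between groups.

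Within most subfamilies a few genes held most of the level. Summed TPM of the 8 Kcna genes was 251 ± 26.1 in the WT mice and 269.9 ± 12.6 in the GFAP-IL6 mice (SD, n = 3 each), of which Kcna2 took 36.5% and 36.6% in the respective means. The 4 Kcnc genes were more even, with the share of Kcnc1 at 28.1 ± 1.39% and 28.9 ± 0.0932% in the WT and GFAP-IL6 mice (SD, n = 3 each). Kcnd2 took 60.6 ± 1.90% and 56.3 ± 4.07%, Kcnh3 49.5 ± 1.21% and 52.6 ± 2.15%, Kcnab2 64.6 ± 1.78% and 68.9 ± 1.02%, and Kcnip2 39.8 ± 3.21% and 42.7 ± 2.76% of their subfamilies in the respective groups (SD, n = 3 each). The share of Kcnab2 was 65.4, 62.5 and 65.8% in the WT libraries and 69.1, 67.8 and 69.8% in the GFAP-IL6 libraries, without overlap. The sum also holds Kcnab1 and Kcnab3, whose log2 fold changes were -0.37 and -0.15. That of Kcnab2 itself was 0.02, and its groups overlapped.

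By subfamily, the medians of the log2 fold changes are given for 6 of the 8 subfamilies, and were 0.04 for the 6 Kcna genes tested, 0.06 for the 4 Kcnc genes, 0.03 for the 3 Kcnd genes and 0.03 for the 7 Kcnh genes. For the proteins that bind these channels the medians were below 0, at -0.15 for the 3 Kcnab genes and -0.15 for the 4 Kcnip genes. These medians are descriptions without a test. In the fit without WT replicate 2 they were -0.01 for Kcna, -0.03 for Kcnc, 0.02 for Kcnd, -0.08 for Kcnh, -0.25 for Kcnab and -0.12 for Kcnip, so that those of Kcna, Kcnc and Kcnh were also below 0. The median of all 33 genes was then -0.05, and 10 of the 33 values were above 0 in place of 22. In the fit without WT replicate 1 the medians were 0.08 for Kcna, 0.16 for Kcnc, 0.04 for Kcnd, 0.17 for Kcnh, -0.08 for Kcnab and -0.14 for Kcnip. The median of all 33 genes was 0.11 in that fit, and 23 values were above 0. Without WT replicate 3, 21 values were above 0, and without GFAP-IL6 replicates 1, 2 and 3 in turn 16, 15 and 23.

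**Figure D2:**
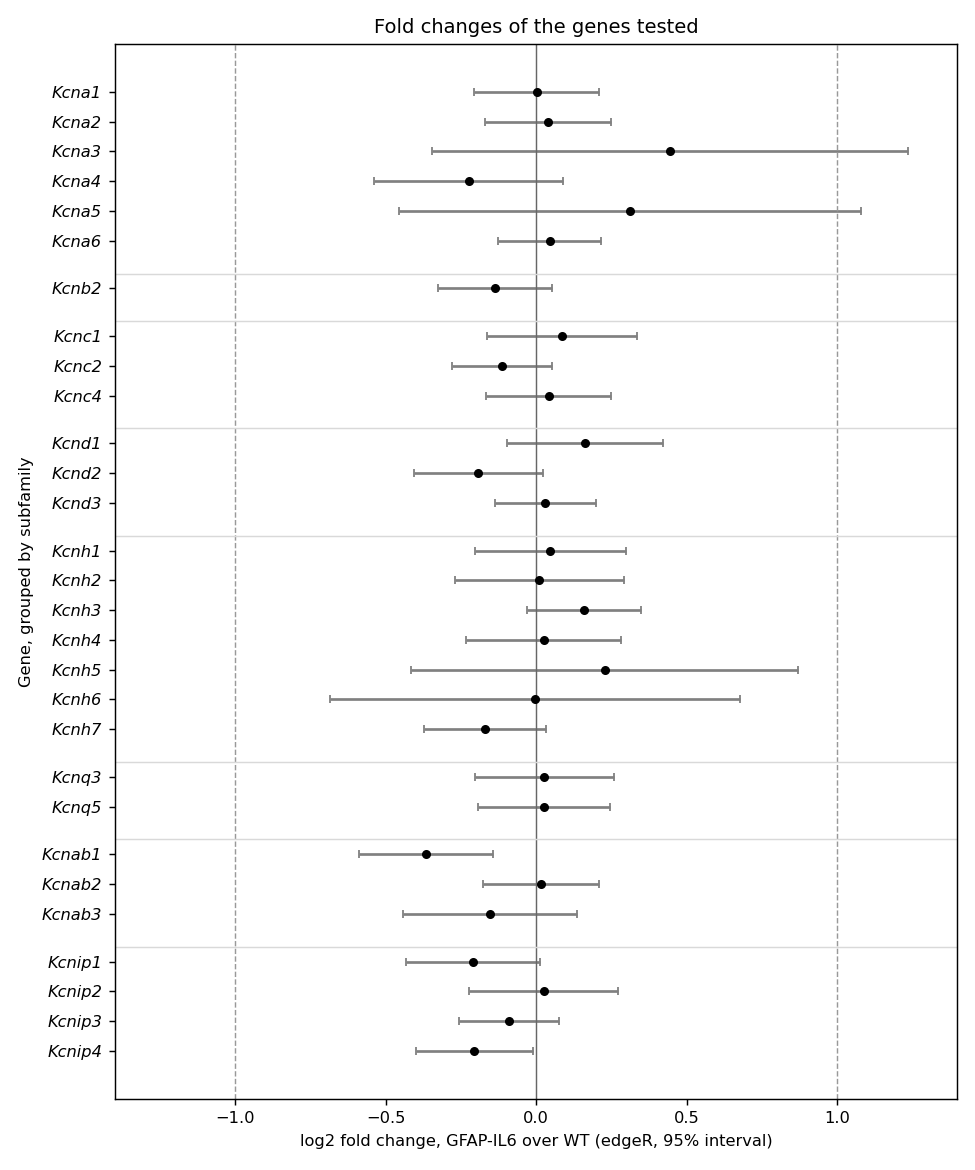
Log2 fold change of GFAP-IL6 over WT for 29 of the genes tested, grouped by subfamily; points are edgeR estimates and lines their 95% intervals, and dashed lines mark 1 log2 unit. Nearly all intervals lie inside the dashed lines, with those of Kcna3 and Kcna5 reaching past the upper one, and only those of Kcnab1 and Kcnip4 leave out 0.

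Kcnab1 had the smallest p of the family. It encodes a beta subunit that gives Kcna channels fast inactivation, and the gene (ENSMUSG00000027827.14) lies at chr3:65109384-65378223 on GRCm38. Its level was 95.03, 115 and 89.7 CPM in WT replicates 1, 2 and 3 and 76.3, 82.9 and 73.9 CPM in GFAP-IL6 replicates 1, 2 and 3. The groups did not overlap, and the highest value was that of WT replicate 2. The log2 fold change was -0.37 ± 0.10 (SE, n = 3 each; 95% interval -0.59 to -0.14), and by edgeR the unadjusted p was 0.00364 and the adjusted p 0.0828. Of its exon bases, 2.34% are also covered by an antisense gene. The adjusted p was 0.0390 by DESeq2, and by edgeR it was 0.0126 without the low-count filter. It was 0.0448 without WT replicate 1, while the other fits that left out a library gave 0.0589 to 0.352. More genes of any kind were called in these settings. The number was 522 by DESeq2, 1154 without the filter and 1061 without WT replicate 1, against 439 by edgeR with the filter and all libraries. More genes entered the fits by DESeq2 and without the filter, and the filter was applied anew without WT replicate 1. These totals are therefore not shares of the same set of genes. Without WT replicate 2 the log2 fold change was -0.25, with an adjusted p of 0.108. WT replicate 2 was also the library with the highest striatum markers, a region where Kcnab1 is expressed, and the part of these markers in the value was not tested.

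The other beta subunits, measured in the same libraries, gave no such value. Kcnab2 was at 489.7, 419 and 476 CPM in WT and at 466, 503 and 432 CPM in GFAP-IL6, with a log2 fold change of 0.02 ± 0.09 (SE). The groups overlapped. Kcnab3 was between 63.8 and 84.5 CPM in WT and between 57.2 and 82.1 CPM in GFAP-IL6, with a log2 fold change of -0.15 ± 0.13 (SE), and -0.27 without WT replicate 2. The per-length ratio of Kcnab1 to Kcnab2 does not depend on the scaling between libraries. It was 0.247, 0.351 and 0.240 in WT and 0.209, 0.210 and 0.218 in GFAP-IL6, without overlap. This pair was chosen after its values were seen, and the ratio is given without a test. The log2 difference between groups was -0.37 with all libraries and -0.20 without WT replicate 2.

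Kcnip4 was the other gene with an unadjusted p under 0.05. It encodes a partner of Kcnd channels that modulates their inactivation. Its level was 79.1, 88.4 and 76.7 CPM in WT and 70.9, 75.7 and 65.4 CPM in GFAP-IL6. The groups did not overlap, but the lowest WT value and the highest GFAP-IL6 value were nearly equal. The log2 fold change was -0.21 ± 0.09 (SE; 95% interval -0.40 to -0.01), and the adjusted p was 0.221 by edgeR and 0.334 by DESeq2. Without WT replicate 2 the log2 fold change was -0.14, with an adjusted p of 0.415. Of its exon bases, 7.36% are also covered by exons of genes on the opposite strand.

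Of the remaining Kcnip genes, Kcnip1 and Kcnip3 were also lower on average in GFAP-IL6, and neither passed the test. Kcnip1 was between 24.8 and 28.6 CPM in WT and between 21.4 and 24.8 CPM in GFAP-IL6, with a log2 fold change of -0.21 ± 0.10 (SE; adjusted p 0.268 by edgeR). Kcnip3, which is also known as a transcriptional repressor, was between 113 and 119 CPM in WT and between 104 and 111 CPM in GFAP-IL6, with a log2 fold change of -0.09 ± 0.08 (SE) and no overlap between groups. Kcnip2, the most abundant of the 4, was at 133, 103 and 120.2 CPM in WT and at 124, 134 and 104 CPM in GFAP-IL6. For Kcnip2 the log2 fold change was 0.02 ± 0.11 (SE), and the groups overlapped.

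The Kcnd genes encode the A-type channels to which the Kcnip proteins bind, and which damp signals in dendrites. Kcnd2 was at 104, 107 and 94.7 CPM in WT and at 92.5, 98.1 and 77.3 CPM in GFAP-IL6. The groups overlapped, with the lowest value in GFAP-IL6 replicate 3. For Kcnd2 the log2 fold change was -0.19 ± 0.10 (SE; adjusted p 0.291 by edgeR). Kcnd3 differed little between any libraries, from 76.3 to 83.6 CPM, with a log2 fold change of 0.03 ± 0.08 (SE). Kcnd1 was the least abundant of the 3 by TPM and had a log2 fold change of 0.16 ± 0.12 (SE).

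The Kcna genes encode low-threshold channels that sit beside the nodes of myelinated axons and at axon initial segments. Kcna2 was at 428, 345 and 407 CPM in WT and at 401, 439 and 372 CPM in GFAP-IL6. Kcna1, with which it forms mixed channels, was between 234 and 285 CPM in WT and between 234 and 282 CPM in GFAP-IL6. The log2 fold changes were 0.04 ± 0.10 and 0.00 ± 0.10 (SE). The groups overlapped for both genes, and 95% intervals lay between -0.21 and 0.25. Kcna6 was at 123, 124 and 122 CPM in WT and at 131, 118 and 130.1 CPM in GFAP-IL6. In GENCODE M21, 39.6% of its exon bases are also covered by the antisense gene Gm26673, and reads of these genes cannot be told apart without strand. Kcna4 had a log2 fold change of -0.22 ± 0.14 (SE; adjusted p 0.396 by edgeR), and -0.11 without WT replicate 2. Kcna5 had 10 to 35 counts in any library, with a log2 fold change of 0.31 ± 0.35 (SE) and of 0.77 without WT replicate 2.

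Kcna3 had the largest log2 fold change of the family and one of the least certain. Outside neurons it is known as the Kcna channel of T cells and microglia. It was at 10.1, 2.33 and 6.03 CPM in WT and at 7.53, 8.72 and 8.15 CPM in GFAP-IL6. The GFAP-IL6 values lay inside the range of WT, whose replicates 1 and 2 were the extremes. The log2 fold change was 0.44 ± 0.36 (SE; 95% interval -0.35 to 1.23), and the adjusted p was 0.509 by edgeR. The fold change was 0.96 on the log2 scale without WT replicate 1 and 0.03 without WT replicate 2. In the same libraries, 10 of 11 microglia markers were higher in GFAP-IL6 at an adjusted p under 0.05 by edgeR, and their summed level was 450 to 548 CPM in WT and 963 to 1116 CPM in GFAP-IL6, with none at 0. The 8 T cell markers summed to between 2.003 and 3.58 CPM in WT and between 2.46 and 3.76 CPM in GFAP-IL6, with Cd3d at 0 in all libraries. Of the 8, 2 were tested, Cd4 and Lck, and 0 were called. Lck was higher without overlap, with means of 0.71 CPM in WT and 1.13 CPM in GFAP-IL6 (adjusted p 0.279 by edgeR). Cd4 was lower on average, at 1.64 and 1.19 CPM, with overlap. Cd3e and Cd8a, at 0 to 3 reads in any library, were higher without overlap in CPM. The part of these cells in the level of Kcna3 was not tested.

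Kcnb2, a delayed rectifier subunit, was between 40.1 and 44.1 CPM in WT and between 35.9 and 39.98 CPM in GFAP-IL6. Its groups did not overlap, with a log2 fold change of -0.14 ± 0.09 (SE; adjusted p 0.385 by edgeR).

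The Kcnc genes encode high-threshold channels with fast kinetics, which let interneurons fire at high rates. Kcnc1 was at 275, 192 and 249.7 CPM in WT and at 261, 256 and 242 CPM in GFAP-IL6. The lowest value was again that of WT replicate 2. Kcnc2 was at 160.4, 149 and 155 CPM in WT and at 141, 147 and 141 CPM in GFAP-IL6, without overlap. The log2 fold changes were 0.09 ± 0.11 for Kcnc1 and -0.11 ± 0.08 for Kcnc2 (SE), with adjusted p values of 0.700 and 0.414 by edgeR. Kcnc4 had a log2 fold change of 0.04 ± 0.10 (SE). Among 9 markers of fast-spiking interneurons, a list that holds Kcnc1 and Kcnc2 themselves, 0 had an adjusted p under 0.05 by edgeR, against 2.86% of all genes tested. Of the markers 1, Pvalb, had an unadjusted p under 0.05 by edgeR, against 20.5% of all genes tested. The summed level of the 9 markers was 1320 to 1466 CPM in WT and 1268 to 1417 CPM in GFAP-IL6.

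The Kcnq genes carry the M current, a slow current that restrains repetitive firing. Kcnq3 was between 218 and 288 CPM in WT and between 244 and 279 CPM in GFAP-IL6, with a log2 fold change of 0.03 ± 0.11 (SE). The groups overlapped, with the lowest value in WT replicate 2. Kcnq5 was between 124 and 155 CPM in WT and between 125 and 148 CPM in GFAP-IL6, with a log2 fold change of 0.03 ± 0.10 (SE).

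The Kcnh genes encode channels of the EAG, ERG and ELK types. Kcnh3 was at 199, 163 and 179 CPM in WT and at 199.7, 209 and 196 CPM in GFAP-IL6. WT replicate 1 lay within the GFAP-IL6 range, and the log2 fold change was 0.16 ± 0.09 (SE; adjusted p 0.321 by edgeR), and 0.09 without WT replicate 2. Kcnh7 was between 233 and 263 CPM in WT and between 195 and 239.5 CPM in GFAP-IL6, with a log2 fold change of -0.17 ± 0.09 (SE). Kcnh5 was at 23.0, 7.58 and 12.7 CPM in WT and at 16.6, 19.3 and 13.8 CPM in GFAP-IL6. As for Kcna3, WT replicates 1 and 2 were the extremes, and the log2 fold change was 0.23 ± 0.30 (SE) with all libraries, 0.70 without WT replicate 1 and -0.09 without WT replicate 2. Kcnh1, Kcnh2 and Kcnh4 had log2 fold changes between 0.01 and 0.05, and Kcnh6, at 2.14 TPM, had -0.00 ± 0.31 (SE).

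**Figure D3:**
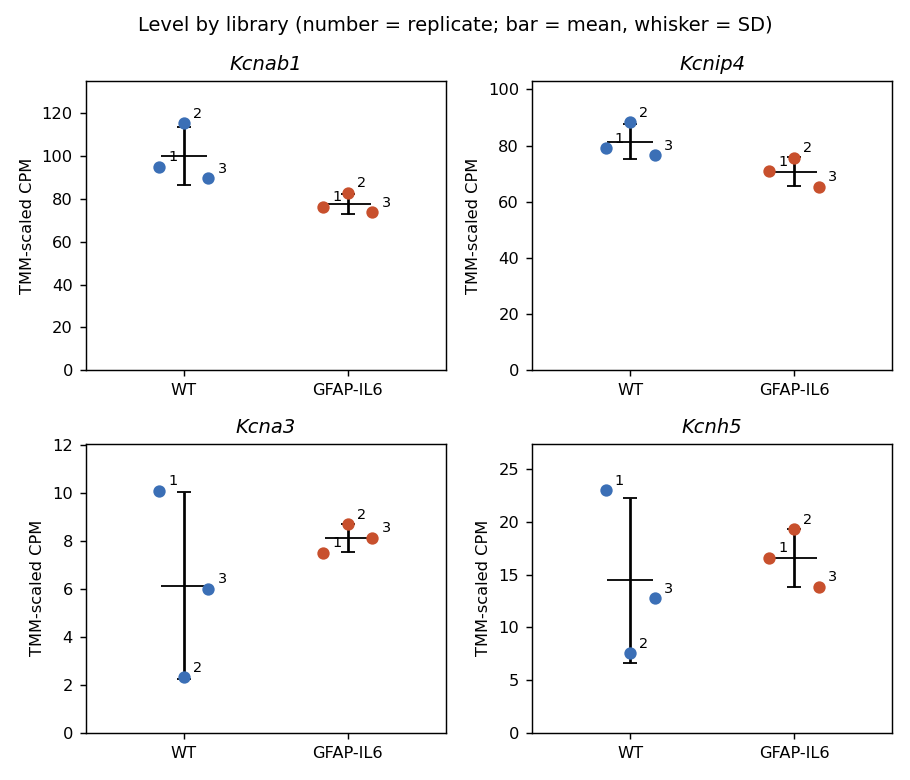
Level of 4 genes by library in TMM-scaled CPM from 0; points are single libraries labelled with their replicate number, bars are group means and whiskers the SD (n = 3). Kcnab1 and Kcnip4 show groups that do not overlap, and in Kcna3 and Kcnh5 the WT values spread around those of GFAP-IL6 with replicate 2 lowest.

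By library, WT replicate 2 was the lowest of the 6 libraries in 17 of the 33 genes (51.5%), while it was lowest in 25.8% of all genes tested. Among them were Kcna1, Kcna2, Kcna3, Kcnc1, Kcnd1, Kcnh1, Kcnh2, Kcnh3, Kcnh4, Kcnh5, Kcnq3, Kcnab2 and Kcnip2. WT replicate 1 was the highest in 13 of the 33 genes (39.4%), against 14.5% of all genes tested. The median deviation of the 33 genes from their means over all libraries was -0.15 log2 units in WT replicate 2 and 0.13 in WT replicate 1. Genes of the family are not independent measurements, and these counts are descriptions without a test.

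**Figure D4:**
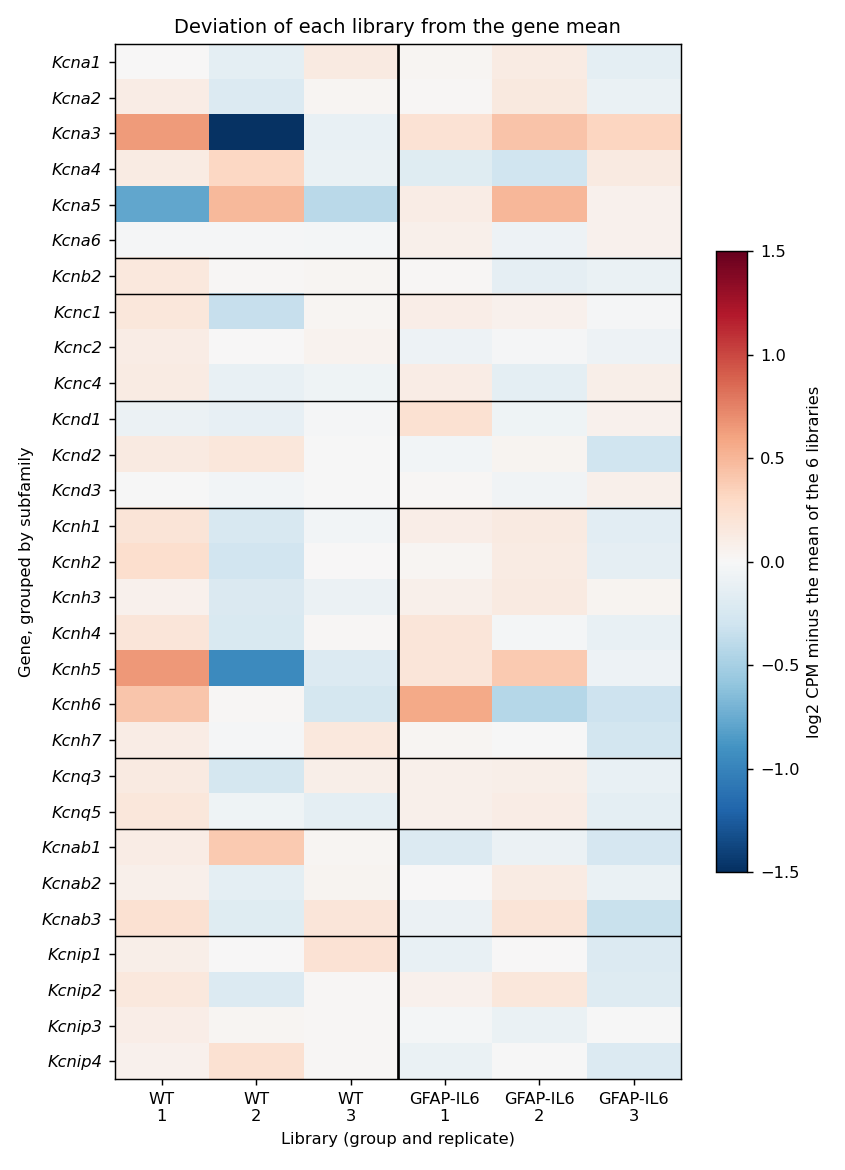
Deviation of each library from the mean of the 6 libraries for 29 of the genes tested, in log2 units of TMM-scaled CPM (red above, blue below), with WT libraries left and GFAP-IL6 libraries right of the thick line. The column of WT replicate 2 is mostly blue, darkest in Kcna3 and Kcnh5, and the columns of one group are not all of one colour.

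The groups did not overlap in 6 of the 33 genes (18.2%), against 26.5% of all genes tested. Lower without overlap were Kcnab1, Kcnip4, Kcnb2, Kcnc2 and Kcnip3, 5 of 33 genes against 12.7% of all genes tested, and 1 of 33 was higher without overlap against 13.8%.

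The balance between subunits that share a subfamily was compared by the per-length ratio of the 2 most abundant genes in each of the 8 subfamilies. Of these ratios 6 are given here. A ratio does not show that the 2 subunits share a ring, and the Kcnh genes encode channels of the EAG, ERG and ELK types. The ratio of Kcnh3 to Kcnh7 was 3.18, 2.87 and 2.78 in WT and 3.41, 3.65 and 4.10 in GFAP-IL6, without overlap. The ratio of Kcnc1 to Kcnc2 was 1.17, 0.881 and 1.10 in WT and 1.27, 1.19 and 1.18 in GFAP-IL6, where WT replicate 1 came close to the GFAP-IL6 values. The log2 difference of this ratio was 0.21 with all libraries and 0.09 without WT replicate 2. For both ratios the exact two-sided permutation p was 0.1, the smallest that 3 against 3 libraries allow, and 0.267 after Benjamini-Hochberg adjustment over the 8 ratios. The other 4 ratios overlapped between groups, with exact permutation p values of 0.2 to 0.6. That of Kcna2 to Kcna1, for example, was 1.23, 1.11 and 1.07 in WT and 1.14, 1.17 and 1.19 in GFAP-IL6.

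Genes that work with these channels, and other potassium, sodium and HCN channels of any cell type, were taken from 6 lists with 90 genes, of which 77 were tested. Of these, 1 was called higher and 0 lower at an adjusted p under 0.05 by edgeR, against 2.65% and 0.209% of all genes tested. At an unadjusted p under 0.05 by edgeR, 7 were higher and 11 lower, against 11.1% and 9.37% of all genes tested. The same shares stand beside the counts of the single lists that follow. The median log2 fold change of the 77 genes was -0.06. The gene called was Kcnk6, a two-pore channel outside the voltage-gated family and 1 of 14 such genes on the list, 10 of them tested. It was at 4.96, 5.91 and 4.77 CPM in WT and at 9.05, 8.98 and 11.4 CPM in GFAP-IL6. Its groups did not overlap, and the log2 fold change was 0.90 ± 0.17 (SE; adjusted p 0.0102 by edgeR).

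Of 18 accessory and silent subunits, 14 were tested and 0 were called, with 1 higher and 3 lower at an unadjusted p under 0.05 by edgeR. The smallest p of the list was that of Kcne4, a small accessory subunit, with 19, 26 and 23 reads in the WT libraries and 7, 7 and 5 reads in the GFAP-IL6 libraries. Its groups did not overlap in CPM, and the fold change was -1.15 ± 0.34 on the log2 scale (SE; adjusted p 0.0948 by edgeR). Also among them Dpp10, a partner of Kcnd channels like the Kcnip proteins, was at 212, 239.96 and 204 CPM in WT and at 183, 198 and 155 CPM in GFAP-IL6, with a log2 fold change of -0.29 ± 0.10 (SE; adjusted p 0.141 by edgeR). Of 18 proteins that cluster or anchor these channels, all 18 were tested and 0 were called, with 2 higher and 4 lower at an unadjusted p under 0.05 by edgeR. Of 13 sodium and HCN channel genes, 0 were called, with 2 higher and 1 lower at an unadjusted p under 0.05 by edgeR. Of the inward rectifiers, 12 of 15 were tested and 0 were called, with 0 higher and 3 lower at an unadjusted p under 0.05 by edgeR, and Kcnj2 had the smallest p, with a log2 fold change of -0.56 ± 0.15 (SE; adjusted p 0.0656). Also among the 3 was Kcnj13, with 133 reads in WT replicate 3 and 4 to 16 reads in every other library. Its groups overlapped, and WT replicate 3 was the library with the highest choroid plexus markers. Of the calcium- and sodium-activated channels, 10 of 12 were tested and 0 were called, with 1 higher and 0 lower at an unadjusted p under 0.05 by edgeR.

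Markers of other cells were measured in the same fit. Beside their counts stand the shares of all genes tested, 2.65% higher and 0.209% lower at an adjusted p under 0.05 by edgeR. At an unadjusted p under 0.05 the shares were 11.1% higher and 9.37% lower. At an adjusted p under 0.05 by edgeR, 5 of 11 endothelial and mural markers were higher in GFAP-IL6, and 1 of 10 astrocyte markers, Gfap. Of the 13 neuron markers 0 were called, with 0 higher and 3 lower at an unadjusted p under 0.05 by edgeR, and of the 11 oligodendrocyte and precursor markers 0 were called, with 1 higher and 0 lower. Of the 10 striatum markers 0 were called, with 1 on either side at an unadjusted p under 0.05, and of the 7 choroid plexus markers 3 were tested and 0 called, with 0 higher and 2 lower at an unadjusted p under 0.05 by edgeR. Their part in the values of the potassium channel genes was not tested.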

How the data were processed

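Frontal cortex RNA of 3 GFAP-IL6 and 3 WT mice was examined, with groups and replicate numbers taken from sample titles. The authors deposited whole-number counts per gene, with a gene length in bases. Per the study's methods, reads were aligned to mm10 with STAR (2.4) and counted on GENCODE M6 genes with featureCounts; use of strand was not stated. The submitters' processing notes name hg19, although identifiers are of mouse.

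Groups were compared by edgeR 4.0.16 under R 4.3.3 (quasi-likelihood F-test, TMM, filterByExpr, group only, Benjamini-Hochberg adjustment over 15341 genes). Standard errors came from the F statistic, and intervals were taken at 95%. DESeq2 1.42.0, DESeq2 size factors, no low-count filter, a mean CPM of at least 1, thinning to the smallest library, a replicate block and omission of each library were alternatives. TPM used deposited lengths. Coordinates and exon overlap came from GENCODE M21 on GRCm38, which matched 37 of 37 genes. Intervals include the spread between mice, and the floor of 3 counts covers counting error only. No pair of libraries agreed within sampling noise (chi-square per degree of freedom 2.32 to 21.6 over 15 pairs).

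The fits were tested on simulated counts with known changes.

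The rule for members uses gene symbols and no measured value, but it and the lists were chosen with earlier results of these data known. Values by library were given for genes with an unadjusted p under 0.05 and the most abundant gene of each subfamily, for the genes called or among those with the smallest p in other lists, and for Kcna3, Kcna6, Kcnc2 and Kcnh5, chosen after their values were seen. Some members enter the counts and are not reported singly here.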

Additional observations from a re-analysis of the deposited data

How the results depend on the processing

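No alternative called a gene of the family higher. Kcnab1 was called lower, so that 1 gene was called in place of 0, with DESeq2, without the low-count filter, with the replicate block (adjusted p 0.0311) and without WT replicate 1; omission of a library gave 0 to 1. The replicate numbers were not taken to pair the mice. Correlations of deviations were 0.0996, 0.0147 and 0.0211 for equal numbers and ran from -0.0770 to 0.0524 for unequal numbers. The highest of the unequal ones was that of WT replicate 2 with GFAP-IL6 replicate 3. With 3 mice per group these correlations cannot decide whether the numbers mark a pairing.

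Over all genes, 439 were called (407 higher, 32 lower). The number was 1154 without the filter (801 higher, 353 lower) and 750 with the replicate block, of which 156 were lower. With DESeq2 it was 522, of which 106 were lower. More genes entered the fits with DESeq2 and without the filter than the main fit. Omission of a library gave 187 to 1061 genes (186 to 692 higher, 1 to 369 lower), with 1061 without WT replicate 1, 282 without GFAP-IL6 replicate 2 and 187 without GFAP-IL6 replicate 3. The median log2 fold change of the family ran from -0.05 to 0.11. With a mean CPM of at least 1 the filter again kept 33 genes. The cause of these changes was not tested.

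Of 319 values of single genes under the alternatives, 35 had the opposite sign, all of genes that were not called. Kcna1 was at -0.00342 with DESeq2, -0.0018 without the filter and -0.00242 after thinning, where Kcnh2, Kcnh4 and Kcnh6 were at -0.0399, -0.0324 and 0.14. Omission of a library gave -0.0709 to 0.0746 for Kcna1, -0.0482 to 0.104 for Kcna2, -0.0496 to 0.0729 for Kcnab2, -0.0511 to 0.19996 for Kcnc1, -0.0066 to 0.117 for Kcnc4, -0.053 to 0.165 for Kcnh1, -0.118 to 0.145 for Kcnh2, -0.0764 to 0.12 for Kcnh4, -0.0882 to 0.704 for Kcnh5, -0.422 to 0.177 for Kcnh6, -0.0692 to 0.125 for Kcnip2, -0.0895 to 0.102 for Kcnq3 and -0.0389 to 0.125 for Kcnq5, and a log2 difference of -0.00309 to 0.0971 for the ratio of Kcna2 to Kcna1. The ratios without a library were added after seeing the data.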
